A study of Mus musculus with 6 samples.

Results

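The 47 genes described here belong to the germline: they serve meiosis, the piRNA pathway, or the making of sperm and eggs. Many such genes are known to be kept silent in somatic cells by methylation of CpG dinucleotides at their promoters. Methylation was not measured in these data. The genes were taken as a list of symbols, which was chosen with earlier results of these data known. Shares of this list set beside those of all probe sets are therefore descriptions and no independent test. Every probe set that the platform annotation gives to 1 of those symbols was used. Among the 12393 genes named on the array, this gave 59 probe sets for 47 of 47 genes. Of these genes, 37 had 1 probe set, 8 had a pair and 2 had 3. Levels are log2 expression values from RMA, which corrects background, scales arrays to each other and summarises each probe set. A step of 1 is a doubling.

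The cells were magnetically separated CD4+CD25+ cells, the population that holds most Foxp3+ regulatory T cells, from mice with the genotype fl-DNMT1/Foxp3cre on the C57BL6 strain (3 arrays, here Dnmt1 knockout). They were set against the same population from wild type C57BL6 mice (3 arrays). In the knockout the floxed Dnmt1 gene is deleted where Foxp3 drives the Cre recombinase, so separated cells without Foxp3 keep the gene. The controls are described as wild type only, so the deletion cannot be told apart from effects of the Cre or of the floxed allele. The knockout samples are described as independent, without saying whether each came from 1 animal, and no age is stated. The p-values therefore describe the spread between samples, which may be technical in part.

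DNA methylation at a CpG is copied to the new strand at DNA replication by Dnmt1, together with Uhrf1, and is lost over divisions when Dnmt1 is missing. Germline promoters are among the best known places where this loss lets a gene be transcribed, because many of them are rich in CpG and methylated in somatic tissues. Other repressors, such as the E2f6 and Mga complex of Polycomb proteins and the H3K9 methyltransferases, also keep germline genes off.

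The promoters of the 3 genes that rose and of 1 that did not pass the test, Ddx4, are shown for the CpG they carry. Each runs from 250 bases before the start of the transcript to 50 bases after it, in the direction of the gene, from the RefSeq table of build GRCm38.p6, with CpG in capitals. Dazl (chr17:50293571-50293870, minus strand) has 28 CpG, Mnd1 (chr3:84155737-84156036, minus strand) 12 and Tex19.1 (chr11:121145893-121146192, plus strand) 16. Ddx4 (chr13:112652261-112652560, minus strand) has 38, the most of any member promoter.
Dazl: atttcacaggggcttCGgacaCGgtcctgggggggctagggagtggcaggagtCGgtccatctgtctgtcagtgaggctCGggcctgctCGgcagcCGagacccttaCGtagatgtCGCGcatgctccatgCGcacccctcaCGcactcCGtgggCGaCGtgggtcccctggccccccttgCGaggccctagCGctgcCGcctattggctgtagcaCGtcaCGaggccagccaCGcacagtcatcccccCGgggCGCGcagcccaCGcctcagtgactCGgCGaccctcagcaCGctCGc
Mnd1: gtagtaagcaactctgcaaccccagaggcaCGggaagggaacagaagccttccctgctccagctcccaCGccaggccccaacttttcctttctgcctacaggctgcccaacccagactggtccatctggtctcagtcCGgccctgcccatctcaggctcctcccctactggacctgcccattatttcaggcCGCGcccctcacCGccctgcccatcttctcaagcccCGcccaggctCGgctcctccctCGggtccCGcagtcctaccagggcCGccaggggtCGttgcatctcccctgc
Tex19.1: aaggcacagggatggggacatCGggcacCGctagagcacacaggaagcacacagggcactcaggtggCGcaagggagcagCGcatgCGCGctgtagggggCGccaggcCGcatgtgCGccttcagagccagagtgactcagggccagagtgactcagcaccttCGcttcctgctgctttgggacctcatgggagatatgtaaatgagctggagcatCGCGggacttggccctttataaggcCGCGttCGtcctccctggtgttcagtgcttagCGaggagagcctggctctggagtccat
Ddx4: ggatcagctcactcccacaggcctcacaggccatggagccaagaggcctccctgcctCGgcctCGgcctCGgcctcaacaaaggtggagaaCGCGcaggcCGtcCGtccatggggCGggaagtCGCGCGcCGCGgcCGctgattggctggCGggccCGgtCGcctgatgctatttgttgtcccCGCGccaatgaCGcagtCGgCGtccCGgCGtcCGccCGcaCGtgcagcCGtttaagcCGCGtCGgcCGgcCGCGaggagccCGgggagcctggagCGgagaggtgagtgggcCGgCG

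Of the 47 genes, Dazl, Mnd1 and Tex19.1 rose in the Dnmt1 knockout, by 4 of the 59 probe sets, and 0 fell. Limma, with Benjamini-Hochberg adjustment over all 22626 probe sets and a threshold of 0.05 on the adjusted p, called 1.19% of all probe sets higher and 0.486% lower. At an unadjusted p under 0.05, 13 of the 59 probe sets differed, 1 of them lower (Tnp1 1438632_x_at), where 16.6% of all probe sets did. The remaining 44 genes did not pass the adjusted test. Their largest difference was 0.65 on the log2 scale. Levels in the separated cells cannot tell a rise in every cell from a rise in some of them, since fewer cells of a type and less RNA per cell give the same signal.

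Dazl encodes an RNA-binding protein that controls the translation of germ cell transcripts and is needed for the making of sperm and eggs. Its probe set 1419542_at had levels of 7.44, 7.09 and 6.96 in the knockout, against 3.17, 3.18 and 3.45 in wild type. The lowest knockout array lay far above the highest wild type array. The means were 7.16 ± 0.25 in the knockout and 3.27 ± 0.16 in wild type (SD, n = 3 each), a difference of 3.90 (SE 0.14, limma adjusted p = 3.47e-05), or 14.9-fold. The other Dazl probe set, 1449502_at, had levels of 6.47, 6.15 and 6.09 in the knockout, against 3.67, 4.08 and 3.66 in wild type. It differed by 2.43 (SE 0.15, limma adjusted p = 0.000577), so both probe sets of the gene rose. The wild type values are at the floor, and RMA compresses low levels, so these folds may understate the change of such genes, which was not tested.

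Mnd1 encodes the partner of Psmc3ip (Hop2) in the complex that helps the recombinase Dmc1 to pair homologous chromosomes in meiosis. Its single probe set, 1452606_at, had levels of 7.96, 7.81 and 7.53 in the knockout, against 3.88, 3.44 and 3.67 in wild type. Again all knockout arrays were above all wild type arrays. The means were 7.77 ± 0.22 in the knockout and 3.66 ± 0.22 in wild type (SD, n = 3 each), a difference of 4.10 (SE 0.15, limma adjusted p = 3.47e-05), or 17.2-fold. Ranked by difference, Mnd1 was number 10 and Dazl number 11 of the 22626 probe sets. The wild type levels of Mnd1 and of Dazl 1419542_at were at the 24.2 and 16.5 percentiles of all probe sets, and their knockout levels at the 74.5 and 66.8 percentiles.

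Tex19.1 encodes a germ cell and placenta protein that restrains retrotransposons. Its probe set, 1417482_at, had levels of 4.34, 4.73 and 4.28 in the knockout, against 3.72, 3.20 and 3.45 in wild type. The groups did not overlap, but the gap between them was narrow. The difference was 1.00 (SE 0.16, limma adjusted p = 0.0318). This call was lost with any wild type array left out and without knockout replicate 2 or 3, with adjusted p-values of 0.0555 to 0.141, whereas with 1 array left out the adjusted p was at most 0.000791 for Dazl 1419542_at, 0.00811 for Dazl 1449502_at and 0.000737 for Mnd1.

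**Figure D1:**
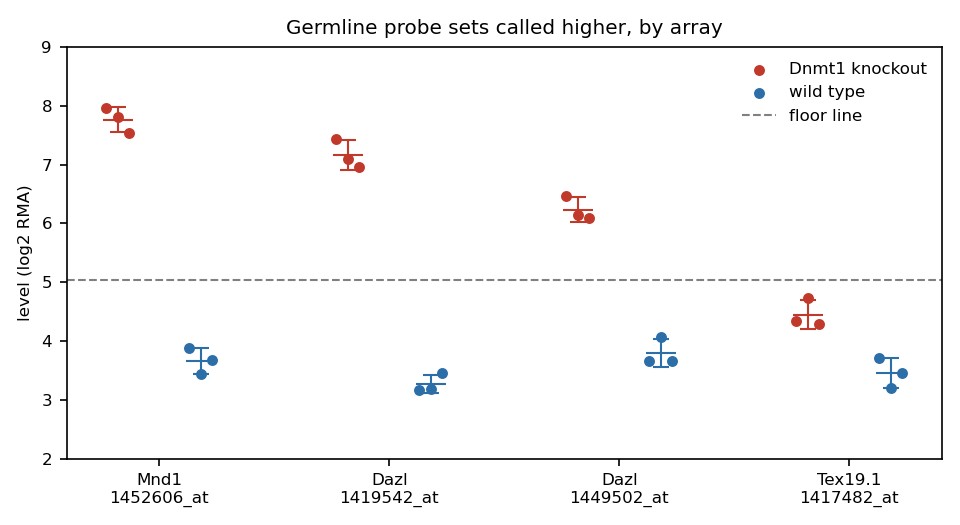
Log2 RMA levels of the 4 germline probe sets called higher, with a point for each array, the mean and the SD (n = 3 each) for the Dnmt1 knockout on the left and wild type on the right of each pair. The knockout values of Mnd1 and of both Dazl probe sets lie between 6.09 and 7.96, above the dashed floor line at 5.03, while those of Tex19.1 stay under it at 4.28 to 4.73.

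Which genes left the floor of the array was read against transcripts that a T cell should lack. The value table has no detection calls, so 66 probe sets of 44 genes of other organs, such as albumin, crystallin and insulin genes, stood for them. Their wild type values had a median of 3.33 and a 90th percentile of 5.03, which served as the line. Probe sets differ in how brightly they report a transcript, so this line is rough and no test. On it, 53 of the 59 germline probe sets had wild type means below the line, and 49 had knockout means below it. Of the called genes, 2 had all knockout arrays above it, Dazl and Mnd1, and Tex19.1 had none. Over the whole array, 0.177% of probe sets, 40 in all, were called higher with all wild type values below and all knockout values above the line. They include the 3 probe sets of Dazl and Mnd1, and 1 gene from the list of other organs, the milk protein gene Lalba. The same pair of called genes had all knockout arrays above it with the line at the 95th percentile of that list (5.41) or at the median of all wild type values (5.71).

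**Figure D2:**
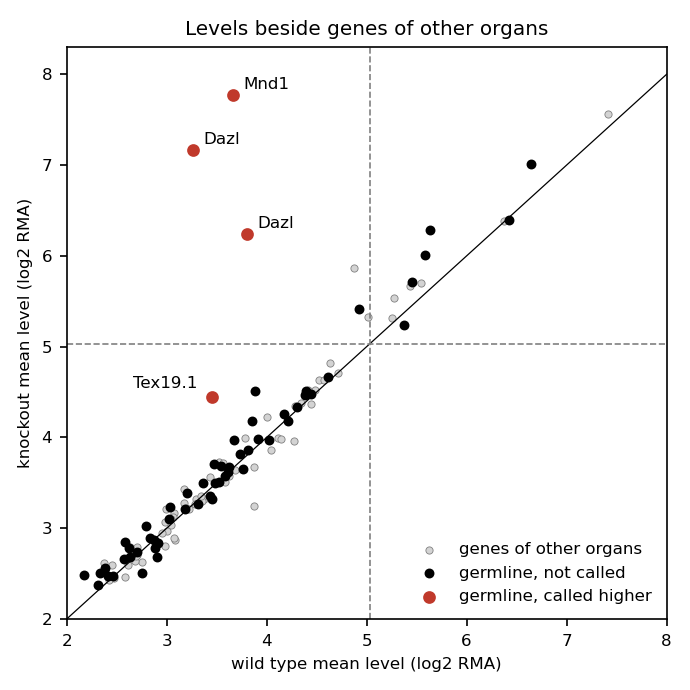
Mean log2 RMA level of each probe set in the Dnmt1 knockout (vertical axis) against wild type (horizontal axis), for germline genes called higher (red), germline genes not called (black) and genes of other organs (grey), with dashed lines at 5.03 and a solid line of equal levels. Mnd1 and both Dazl probe sets stand above the dashed line in the knockout and left of it in wild type. So does Spo11, which was not called, with means of 5.41 in the knockout and 4.92 in wild type. Tex19.1 is under the dashed line, at 4.45 in the knockout and 3.45 in wild type. The germline genes not called lie nearer to the line of equal levels.

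The genes of meiosis were the largest group, with 13 genes and 14 probe sets. Mnd1 rose and the other 12 genes did not pass. Among these 12 the differences ran from -0.14 to 0.62 with a median of 0.24. Tex15, needed for the repair of meiotic breaks, had levels of 4.65, 4.38 and 4.49 in the knockout, against 3.66, 3.84 and 4.15 in wild type, a difference of 0.62 that did not pass (limma adjusted p = 0.0766). The groups did not overlap, but all 6 values were under the floor line. The cohesin gene Stag3 had 4.07, 4.17 and 4.31 in the knockout, against 3.80, 3.79 and 3.98 in wild type (adjusted p = 0.157). Hormad1, a protein of the meiotic chromosome axis, had 2.51, 2.54 and 2.40 in the knockout, against 2.21, 2.21 and 2.11 in wild type (adjusted p = 0.119). Tex12, of the synaptonemal complex, had 4.07, 3.96 and 3.87 in the knockout, against 3.55, 3.67 and 3.81 in wild type (adjusted p = 0.197). In each of these 3 genes the knockout arrays were above the wild type arrays, by 0.33 for Stag3, 0.30 for Hormad1 and 0.29 for Tex12, at levels under the floor line.

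For the recombinase gene Dmc1, which works beside Mnd1 in meiosis, the 2 probe sets disagreed. Probe set 1420335_at had 3.08, 3.29 and 3.35 in the knockout, against 3.01, 3.06 and 3.02 in wild type (limma adjusted p = 0.316), and 1449819_at differed by -0.083. Spo11, which makes the meiotic breaks, had 4.97, 5.48 and 5.78 in the knockout, against 4.58, 5.06 and 5.12 in wild type, with overlapping groups (adjusted p = 0.323). Its mean crossed the floor line, at 5.41 in the knockout and 4.92 in wild type. Syce2, of the central element of the synaptonemal complex, was the brightest member of the group in wild type, with means of 7.01 ± 0.40 in the knockout and 6.64 ± 0.14 in wild type (adjusted p = 0.374). The cohesin gene Rec8 also had mean levels above the floor line in both groups, with 6.35, 4.67 and 4.69 in the knockout, against 5.65, 5.22 and 5.27 in wild type. There 1 knockout array was above and the other 2 were below every wild type array. Sycp1 and Sycp3, the transverse filament and an axial element of the synaptonemal complex, the cohesin gene Smc1b and the recombination gene Tex11 differed by -0.030 to 0.24.

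In the piRNA pathway, which silences transposons in germ cells, Tex19.1 was listed with 7 other genes, and these did not pass. Their 10 probe sets differed by -0.11 to 0.27, with a median of 0.063. Stk31 1425317_x_at had 2.74, 2.83 and 2.99 in the knockout, against 2.48, 2.70 and 2.58 in wild type (limma adjusted p = 0.242). Piwil2, a PIWI protein that binds piRNA, had 3.75, 3.66 and 3.72 in the knockout, against 3.51, 3.54 and 3.39 in wild type (adjusted p = 0.208). Both had non-overlapping groups at floor levels. Ddx4, the germ granule helicase also known as Vasa, had 2.62, 2.52 and 2.91 in the knockout, against 2.71, 2.74 and 2.45 in wild type. The difference of 0.049 (SE 0.13) is smaller than its standard error. Asz1, Tdrd1, Mov10l1 and Rnf17, further germ granule and piRNA proteins, differed by -0.11 to 0.084.

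Beside Dazl, the group of germ cell identity genes held Stra8, the retinoic acid target that starts meiosis, with a difference of -0.012, and Dmrtb1, a transcription factor of spermatogonia, with 0.040. Among 9 genes of sperm formation 0 of 14 probe sets passed, with differences of -0.25 to 0.18. These genes include the protamines Prm1 and Prm2 and the transition protein Tnp1, which replace histones in sperm, and the bromodomain protein Brdt. Tnp1 1438632_x_at was the sole germline probe set whose knockout values all lay below the wild type values, with 2.61, 2.75 and 2.69 in the knockout, against 2.97, 2.91 and 2.81 in wild type (limma adjusted p = 0.252). Its other probe set differed by 0.18, the opposite sign. The 3 probe sets of Prm1 had knockout means of 6.39, 2.51 and 2.47 and wild type means of 6.42, 2.75 and 2.41. The bright one, 1415955_x_at, differed by -0.027, less than the spread between arrays, and its suffix marks probes that may match other transcripts. Taf7l, Tex14, Tex101, Tex21 and Hspa1l, further genes of the testis, differed by -0.084 to 0.16.

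The 5 oocyte genes did not pass. Figla and Nobox, transcription factors of the oocyte, differed by 0.14 and -0.11, the maternal protein gene Nlrp5 by 0.091 and the zona pellucida gene Zp3 by -0.049. Oosp1 varied most, with 5.87, 6.16 and 5.11 in the knockout, against 5.05, 5.70 and 5.61 in wild type. Its groups overlapped over most of their range. Of the genes shared by early germ cells and pluripotent cells, Dppa3 (Stella) differed by 0.076, Dppa5a by 0.087 and Zfp42 (Rex1) by 0.17. Zfp42 had 2.52, 2.49 and 2.51 in the knockout, against 2.19, 2.32 and 2.48 in wild type, without overlap at the very floor of the array (limma adjusted p = 0.404).

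The homeobox genes Rhox5, Rhox6 and Rhox9, the cancer-testis gene Magea5 and Pramel1 differed by 0.0037 to 0.052. They are next to Tktl1, a transketolase-like gene, in the last group. Tktl1 1449567_at had 6.47, 6.41 and 5.96 in the knockout, against 5.74, 5.43 and 5.73 in wild type, a difference of 0.65 (limma adjusted p = 0.0950). It was above the floor line on all 6 arrays, so it did not leave the floor. Without knockout replicate 3 it was called higher (difference 0.81, adjusted p = 0.0466). The other probe sets of Tktl1 differed by 0.42 and -0.021. On the X chromosome lie 7 of the members, Tktl1, Magea5, Tex11, Taf7l and the 3 Rhox genes, of which 0 were called. Of 9 probe sets of genes that mark the sex chromosomes, 0 were called.

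**Figure D3:**
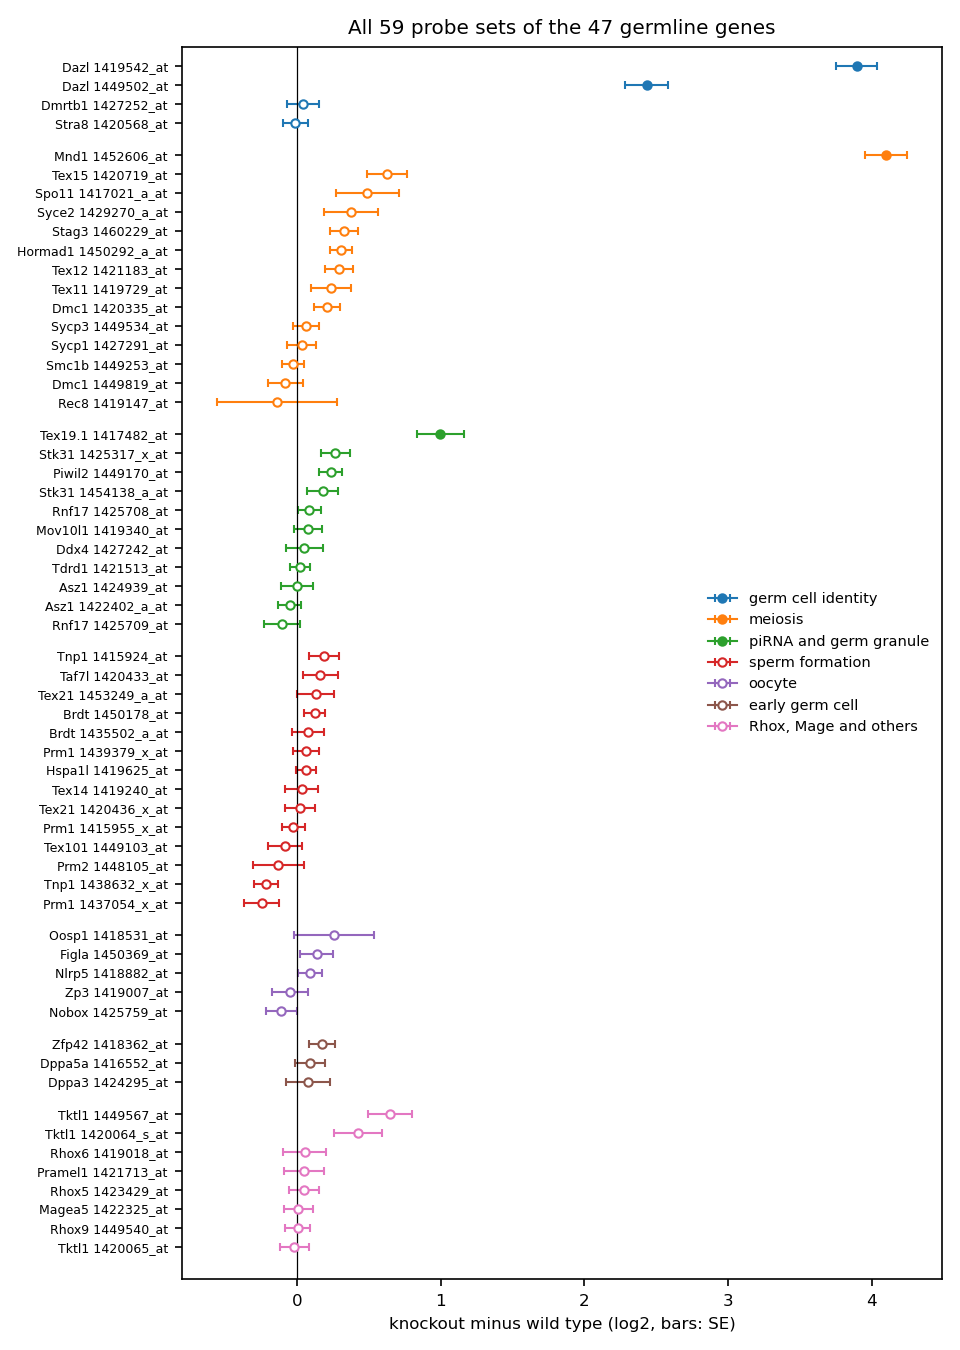
Difference of knockout minus wild type on the log2 scale (horizontal axis) with its limma standard error for each of the 59 germline probe sets, grouped by role, filled where called. The 2 Dazl probe sets, Mnd1 and Tex19.1 are filled, and the other 55 lie between -0.25 and 0.65.

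Of the germline probe sets, 44 had positive and 15 negative differences, most of them small, where 10221 of all 22626 were positive. The groups did not overlap, with the knockout above, in 14 of 59 probe sets, where 9.79% of all probe sets had this pattern. With the knockout below there was 1 of 59, where 13.6% of all had it. Among probe sets as dim as the floor, with a mean over the 6 arrays under 5.03, these shares were 8.2% and 6.39%, and among the 50 germline probe sets of that kind 11 had the knockout above and 1 had it below. The genes of other organs had 11 of 66 above and 3 below. The median difference was 0.072 over the germline probe sets, 0.061 without Dazl, Mnd1 and Tex19.1, 0.0077 over all dim probe sets and 0.023 over the genes of other organs. Of the 55 uncalled germline probe sets, 10 were without overlap upward, and Brdt 1450178_at is the last of them, with 4.51, 4.51 and 4.52 in the knockout, against 4.44, 4.37 and 4.35 in wild type.

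Other germline genes, from a wider list of 86 symbols also chosen with earlier results known, were measured for 39. By 46 probe sets, 2 genes rose and 0 fell, where 1.19% of all probe sets were called higher and 0.486% lower. All knockout values were above all wild type values in 7 of the 46 (9.79% of all probe sets) and below them in 4 (13.6% of all). Among the genes of other organs 11 of 66 probe sets were above and 3 below. Psmc3ip, whose protein pairs with Mnd1, had 6.93, 6.93 and 6.69 in the knockout, against 6.29, 6.10 and 6.28 in wild type (difference 0.63, SE 0.10, limma adjusted p = 0.0303). Nxf2, an RNA export factor of the germline, had 4.23, 3.95 and 4.15 in the knockout, against 3.46, 3.43 and 3.49 in wild type (difference 0.65, SE 0.094, adjusted p = 0.0221). Psmc3ip was above the floor line in both groups and Nxf2 below it. Both calls were lost with any wild type array left out, with adjusted p-values of up to 0.122 for Psmc3ip and 0.105 for Nxf2. That of Psmc3ip was also lost without knockout replicate 2 (0.0694), and that of Nxf2 without knockout replicate 3 (0.0664). Tex19.2, the neighbour of Tex19.1 in the genome, differed by 0.58 without passing (adjusted p = 0.103). Its knockout values of 4.76, 4.68 and 4.46 did not overlap the wild type values of 4.15, 3.77 and 4.26. The median difference of the wider list was 0.051.

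A list of factors tied to the silencing of germline genes was measured for 21 of its 24 genes. Dnmt1 itself had levels of 8.67, 8.89 and 9.34 in the knockout, against 9.56, 9.43 and 9.50 in wild type, by probe set 1422946_a_at, a difference of -0.53 that did not pass (limma adjusted p = 0.162). Its other probe set, 1435122_x_at, had 8.42, 8.62 and 9.17 in the knockout, against 9.51, 9.32 and 9.53 in wild type, a difference of -0.72 that did not pass either (adjusted p = 0.113). Whether these probes lie in the deleted part of the gene is not stated, so the levels do not check the deletion. Of the 40 probe sets of the list, 33 had negative differences, where 12405 of all 22626 did. In 20 all knockout values were below all wild type values (13.6% of all probe sets), and 1 was called lower (0.486% of all). That was 1460324_at of the de novo methyltransferase gene Dnmt3a, with 6.08, 5.98 and 6.16 in the knockout, against 7.10, 6.84 and 6.81 in wild type (difference -0.84, SE 0.10, adjusted p = 0.0160). This call was lost with any wild type array left out (adjusted p of 0.0570 to 0.0642). Of the other 4 probe sets of Dnmt3a, 3 had all knockout values below wild type without passing, with differences of -0.40 for 1423063_at (adjusted p = 0.0889), -0.39 for 1423065_at (0.113) and -0.21 for 1423066_at (0.287), while 1423064_at differed by 0.0071. The next lowest p was that of Rnf2, a Polycomb ubiquitin ligase, with a difference of -0.52 by its probe set 1448043_x_at that did not pass (adjusted p = 0.0637). That probe set was under the floor line, with means of 3.84 in the knockout and 4.36 in wild type. Of the other Rnf2 probe sets, 1424873_at differed by -0.36 (adjusted p = 0.0749) and 1451519_at by -0.30 (0.178). Probe sets 1448042_s_at and 1448041_at each differed by -0.072 with overlapping groups. By size, the next was Mga 1431232_a_at, with 6.23, 6.39 and 7.17 in the knockout, against 7.39, 7.43 and 7.44 in wild type (difference -0.83, adjusted p = 0.125), while its other probe set differed by -0.042. The median difference of the list was -0.17. This list is brighter than the array, with a median wild type mean of 7.35 where all probe sets had 5.71. Among probe sets as dim as the floor, 6.39% had all knockout values below all wild type values. The shares over all probe sets given here are therefore not matched to the list for brightness. The counts of this list include the probe sets of the deleted gene Dnmt1 and of the demethylase gene Tet1. In each of these probe sets all knockout values were below all wild type values. Both Tet1 probe sets were under the floor line, with wild type means of 3.91 and 4.12.

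Within the knockout, the array with the lowest Dnmt1 level (8.67) had the highest levels of Mnd1 and of both Dazl probe sets. That array also had the highest Foxp3 level of the group, 9.28, where the others had 8.82 and 8.43 and wild type had 9.47 to 9.51. These are 3 arrays without a test, and 16.1% of all probe sets put the knockout arrays in the same order. Tex19.1 was highest on another array, knockout replicate 2.

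**Figure D4:**
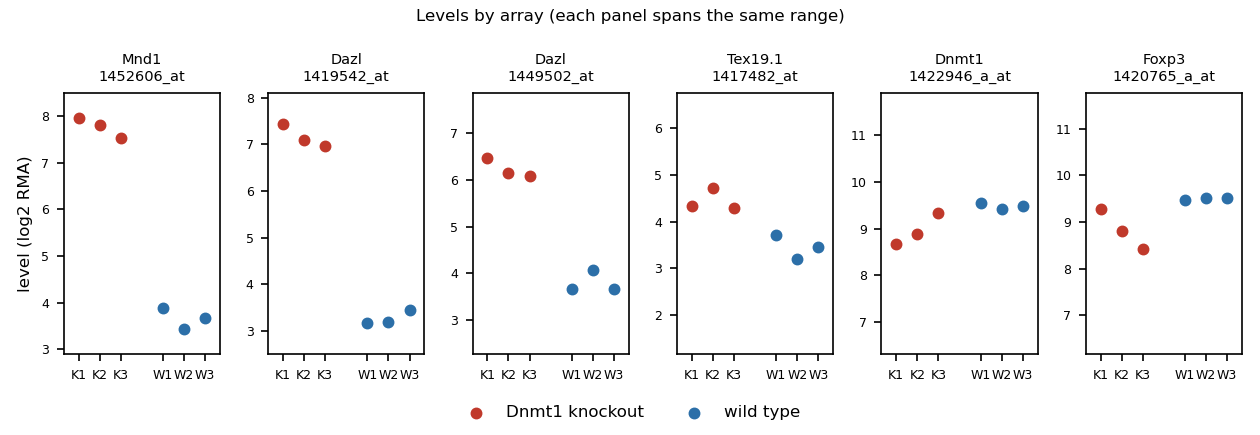
Log2 RMA levels of Mnd1, Dazl, Tex19.1, Dnmt1 and Foxp3 probe sets on each array, knockout replicates K1 to K3 left of wild type replicates W1 to W3, with the same span on every vertical axis. The step between groups is 4.10 for Mnd1, while Dnmt1 differs by -0.53 and Foxp3 by -0.66.

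Markers of other cells moved with the groups as well. The neutrophil list (15 probe sets of 14 genes) had 8 probe sets called higher (S100a8, S100a9, Ngp, Ltf, Camp, Lcn2, Mpo and Prtn3), with means of 7.71, 9.65 and 8.32 on knockout replicates 1, 2 and 3, against 5.81 to 6.15 in wild type. Dazl and Mnd1 were highest on the knockout array where this list was lowest, and Tex19.1 on the one where it was highest. With the neutrophil list mean as a covariate, the difference was 4.29 for Dazl 1419542_at (limma adjusted p = 0.0258), 4.22 for Mnd1 (0.0339), 2.68 for Dazl 1449502_at (0.103) and 0.50 for Tex19.1 (0.692). In the same fit it was 0.59 for Psmc3ip (adjusted p = 0.515) and 1.03 for Nxf2 (0.144), where the fit without the covariate gave 0.63 and 0.65. The monocyte and macrophage list had 4 of 21 probe sets called higher (of Slc40a1, Cd14 and Ccr2) and the CD8 and natural killer list 1 of 12 (Ncr1), and the B cell list had 0 of 13. The erythroid list had 0 of 8 called, but 4 with all knockout values above wild type, with differences of 1.52 for Alas2 (adjusted p = 0.158) and 1.16 for 2 of the Slc4a1 probe sets (0.0727 and 0.113). The cell division list, which bears on genes such as Psmc3ip that cycling cells also use, had 0 of 34 called, with means of 7.15, 7.02 and 7.76 in the knockout and 7.07 to 7.27 in wild type. The T cell and regulatory T cell markers were present, with list means of 9.02 to 9.43 in the knockout and 9.46 to 9.59 in wild type. Of their 14 probe sets 2, of Ikzf2 and Il2ra, were called lower (0.486% of all probe sets). All 14 had negative differences, and in 6 all knockout values were below all wild type values (13.6% of all). Differences were positive in all 15 neutrophil and all 21 monocyte and macrophage probe sets, where 10221 of all 22626 were. They were positive in 8 of 12 CD8 and natural killer, 4 of 13 B cell, 7 of 8 erythroid and 24 of 34 cell division probe sets. Over all probe sets 1.19% were called higher. The neutrophil list mean was higher on every knockout array than on every wild type array. The fit with this covariate therefore cannot tell neutrophil content apart from genotype, whether a call was kept or lost. The part of the monocyte, natural killer and erythroid markers in the germline results was not tested either.

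The promoters of 38 of the 47 genes matched the RefSeq table. Some genes have several starts there, which gave 45 promoter windows of 300 bases. They held a median of 17 CpG (0 to 38), where all 32851 windows of the table held a median of 7 (0 to 67). By CpG count the called genes lay within the range of the uncalled genes. Of the 35 uncalled genes, 6 had at least as many CpG as Dazl and 23 at least as many as Mnd1. Whether the count bears on which genes rose was not tested. Across the 38 genes, by the window with the most CpG and the probe set with the largest difference, the Spearman correlation of the 2 measures was 0.32, given as a description over genes that share the same arrays.

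Motifs of factors known to bind such promoters were searched on both strands. The E2F6 motif TCCCGC was in 17 of the 45 windows (37.8%) and in 20.0% of all windows. The E-box CACGTG, which the Mga and Max pair can bind, was in 16 (35.6%) and in 7.15% of all windows. By gene, the E2F6 motif was found for 2 called genes, Mnd1 and Tex19.1, and for 13 uncalled genes, among them Ddx4. The E-box was found for 0 called and 13 uncalled genes. The longer E2F motif GGCGGGAA, which contains the short one on the other strand, was in 15.6% of the member windows and 2.19% of all. In the windows printed above, the short motif begins at base 4 of the Mnd1 transcript, 33 bases before the start of Tex19.1 and 136 bases before that of Ddx4, and the Ddx4 window also holds the E-box, 29 bases before the start. The Dazl window holds none of these letters.

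**Figure D5:**
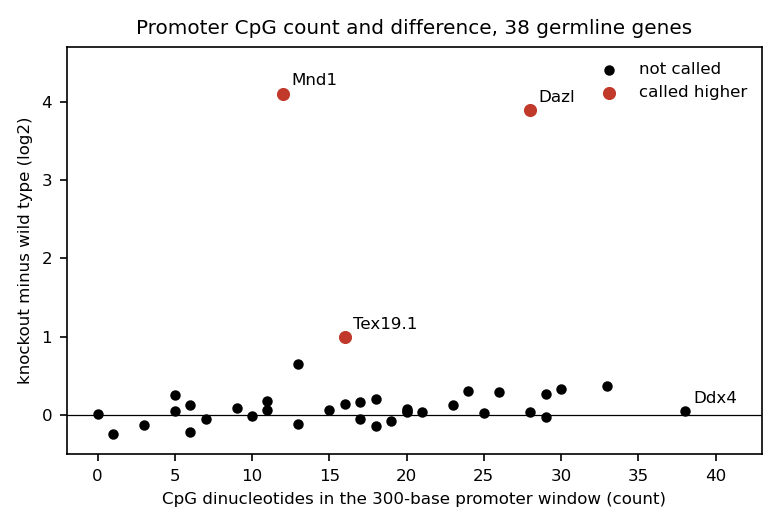
Knockout minus wild type difference on the log2 scale (vertical axis) against the number of CpG in the promoter window (horizontal axis) for 38 germline genes, with called genes in red. Mnd1 has 12 CpG, Tex19.1 has 16 and Dazl 28, within the range of the uncalled genes, and Ddx4, with 38 CpG, is at a difference of 0.049.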

How the data were processed

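The data are 1-colour oligonucleotide arrays of 100 ng biotin-labelled total RNA, 3 per group. The deposited log2 values were made by the authors with RMA, per the submitters' processing notes. No version or setting of RMA is stated, and scanner files were not used here. RMA scales the arrays to each other, so RNA per cell is not measured. Precision is limited by having 3 arrays a group. Array medians lay between 5.69 and 5.77, and single values between 1.93 and 14.7.

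Gene names came from the platform annotation. Of 22690, 64 controls were left out, 20380 had 1 symbol, 691 several and 1555 none here. One probe set shared by Magea5 and other genes was not used. All 47 members were found in the RefSeq table (GRCm38.p6), used for names, chromosomes and neighbours. Of the genes of the other lists, 70 had no probe set of their own.

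Differences, knockout minus wild type, were tested two-sided in R 4.3.3 by limma 3.58.1 (functions lmFit and eBayes), without filtering dim probe sets. An exact permutation test of 3 against 3 arrays cannot go below p = 0.10, so none was used. Pearson correlations over probe sets were 0.991 to 0.993 among knockout arrays, 0.996 to 0.997 among wild type arrays and 0.984 to 0.992 between groups. The fit was also run on simulated data with independent noise of equal spread in both groups. Real knockout arrays correlated less with each other than wild type arrays did, so that run does not check the calls made here.

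Values in every array are given for called members and for the 10 uncalled, non-overlapping member probe sets with the largest differences. Of the lists of other germline genes and silencing factors, the called probe sets and those with the lowest p are given with values, and the lists of cell markers by their counts and means. Tex19.2, Ccnb1ip1, Mga, Alas2, Slc4a1, Spo11, Syce2, Rec8, Oosp1, Prm1, Brdt and Ddx4 were given values after their values were seen. The members and lists were chosen with earlier results of these data known. Titles number the arrays of both groups 1 to 3. Deviations of same-numbered arrays correlated at -0.076, 0.11 and -0.010, so the numbers were not taken as pairs. Plots used matplotlib 3.10.9 (Python 3.11.15).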

Additional observations from a re-analysis of the deposited data

How the results depend on the processing

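Across 16 alternatives, 2 or 3 member genes were called higher and 0 lower, Dazl 1419542_at and Mnd1 in each of them. Dazl 1449502_at lost its call with the neutrophil covariate alone, and Tex19.1 in 8 of 15 alternatives, among them a replicate block (adjusted p = 0.0815) and a size threshold of 1. Without the dimmest 40% of probe sets Tex19.1 was not tested. That filter went by the mean over all 6 arrays, 5.71 for Mnd1 and 5.22 and 5.02 for the Dazl probe sets. Their wild type levels were at the 24.2, 16.5 and 26.7 percentiles, so they passed it only through their knockout values. Their calls under that setting are therefore no support. Called genes with all knockout values above the floor line numbered 2 in every setting except without knockout replicate 3, where Tktl1 made 3. Its wild type values are above the line too, so it did not leave the floor. The sign turned for Dmc1 1420335_at with the neutrophil covariate (-0.0026). Other germline genes called higher numbered 2, but 1 without the dimmest 40%, 0 with a replicate block, 0 with the size threshold, 0 with the neutrophil covariate (differences of 0.59 for Psmc3ip and 1.03 for Nxf2) and 0 to 2 with 1 array left out. Silencing factors called lower numbered 1, but 2 with quantile normalisation, median centring or trend and robust variance, 0 by the brightest probe set, the size threshold or the neutrophil covariate, and 0 to 3 with 1 array left out.

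Over all probe sets, 270 were higher and 110 lower. The replicate block gave 166 and 52, the size threshold 11 and 0, the neutrophil covariate 10 and 2, the brightest probe set a gene 165 and 71, and leaving out 1 array 24 to 493 and 5 to 263. Trend and robust variance gave 182 lower and array weights 169. The cause was not tested. The knockout arrays did not each correlate best with the wild type array of their own number. Signal near the floor limits what can be said of most members: a rise that stays below the floor may not have been measurable.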

Other observations

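Other genes that the same line put among those leaving the floor were named after their values were seen, as the 5 with the largest differences besides Mnd1 and Dazl. Cd177, a neutrophil surface protein, had 6.47, 9.37 and 7.40 in the knockout, against 4.19, 4.18 and 3.60 in wild type. Wfdc21 had 6.72, 9.51 and 7.66 in the knockout, against 4.35, 4.96 and 3.42 in wild type. Both were highest on knockout replicate 2, as was the neutrophil list. Mal, a membrane protein of T cells and epithelia, had 7.07, 7.32 and 5.38 in the knockout, against 2.82, 3.08 and 3.01 in wild type. AI506816 had 7.15, 7.06 and 6.43 in the knockout, against 3.93, 3.77 and 3.85 in wild type. Clvs1, which encodes clavesin, had 6.43, 5.46 and 5.59 in the knockout, against 2.58, 3.29 and 2.97 in wild type. For AI506816 and Clvs1, as for Dazl and Mnd1, the highest knockout value was on replicate 1.

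Ccnb1ip1, a meiotic crossover factor of the wider germline list, did not pass (limma adjusted p = 0.146) and varied within the knockout, with 4.71 ± 0.86 in the knockout and 3.43 ± 0.097 in wild type (SD, n = 3 each).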
